A study of Homo sapiens with 12 samples.

Results

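The Notch genes examined here were 10 of the 61806 genes in the table: the receptors NOTCH1, NOTCH2, NOTCH3 and NOTCH4, the ligands DLL1, DLL4, JAG1 and JAG2, and the HES-family targets HES1 and HEYL. They were taken by gene symbol and followed over 6 groups of 2 RNA-seq libraries each. All cells were H1, a human embryonic stem cell line, so a single line stands behind every value. They were first driven to mesendoderm with the WNT activator CHIR99021 and then differentiated toward cardiomyocytes, and bulk RNA was sequenced on Day 12 and Day 16. The static group, NP-IWP2, was never passaged and was given IWP2, a WNT inhibitor. Pass-ctrl cells were passaged on Day 2 and had no IWP2, and Pass-IWP2 cells had the same passage together with IWP2. Pass-ctrl and NP-IWP2 cells thus differ in passaging and in IWP2, whereas Pass-IWP2 and NP-IWP2 cells differ in passaging.

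Notch receptors are membrane proteins that are activated by ligands of the Delta-like and Jagged families on a neighboring cell. Binding leads to cleavage by ADAM proteases and gamma-secretase, and the freed intracellular domain enters the nucleus, where it joins the DNA-binding protein RBPJ and switches on repressors of the HES and HEY families. In the heart the pathway is known for roles in endocardial and endothelial cells, in the coronary vessels and their mural cells, and in trabeculation of the ventricle.

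Between 14885589 and 19176239 reads were counted on genes per library, and all 10 genes passed the filter on low counts. Levels are given as FPKM (reads scaled to exon length and to the library total), and fold changes as log2FC with their standard error (SE) from edgeR's quasi-likelihood test on counts after TMM normalization, fitted on 12 libraries and 19505 genes. A gene was called when its Benjamini-Hochberg adjusted p was under 0.05. Because nothing in the labels says that the 2 libraries of a group came from separate cultures, these p-values measure only the spread between libraries. Cardiomyocyte markers were abundant in every library, with 12 markers summing to 5213 to 5988 FPKM in NP-IWP2 and Pass-ctrl libraries on Day 12, 2477 and 5801 in Pass-IWP2 libraries on Day 12, 3635 to 4698 in NP-IWP2 libraries on Day 16 and 8861 to 12148 in passaged libraries on Day 16. The Day 12 library labelled Pass-IWP2 replicate 5 stood apart: its Spearman correlation with replicate 6 was 0.921, against 0.989 to 0.995 within the other groups, and it was closest to the NP-IWP2 libraries of Day 12 (0.951 and 0.957). Its difference from replicate 6 entered the spread shared by all groups, and leaving out either of the 2 removes that difference from the spread. Calls, counts or log2FC are therefore also given without replicate 5 where they differ. This leaves a single Pass-IWP2 library on Day 12, which is assumed to vary like the others.

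HEYL, NOTCH1 and NOTCH3 were lower in both kinds of passaged cells than in static cells on Day 16, JAG1 was lower in Pass-ctrl cells, and NOTCH2 and HES1 stayed abundant in every group. On Day 16, Pass-ctrl cells had lower HEYL, NOTCH3, NOTCH1 and JAG1 than NP-IWP2 cells (4 of 10 called, all lower, against 15.3% of all genes called and 9.86% called lower). The median log2FC of the 10 genes was -0.96, against -0.02 for all genes tested, and 8 of the 10 values were negative. Without replicate 5 of Pass-IWP2 on Day 12, 5 were called lower and JAG2 higher, against 34.1% of all genes called, 18.8% lower and 15.3% higher. Pass-IWP2 cells had lower HEYL, NOTCH1 and NOTCH3 and higher NOTCH2 than NP-IWP2 cells on Day 16 (4 of 10 called, 3 lower and 1 higher, against 17.1% of all genes called, 9.95% lower and 7.15% higher). Without that library the counts were 6 lower and 2 higher, against 36.4% of all genes called, 19.3% lower and 17.1% higher. Leaving out 1 library of Day 16 leaves its group with a single library. Calls among the 10 genes could then be lost, sometimes all of them, and the share of all genes called fell as well. With any 1 library left out, the Pass-ctrl log2FC ran from -4.09 to -4.00 for HEYL and -1.91 to -1.77 for NOTCH1. It ran from -1.71 to -1.35 for NOTCH3 and -1.73 to -1.53 for JAG1. In Pass-IWP2 cells the ranges were -2.93 to -2.83 for HEYL and -2.07 to -1.83 for NOTCH1. Those of NOTCH3 and NOTCH2 were -1.87 to -1.52 and 0.47 to 0.79. On 12 libraries the median log2FC of the 10 genes in Pass-IWP2 cells was -1.28, against -0.03 for all genes. It was the same with DLL4, which had 0 counts there, set at its bound. When libraries were scaled to total counts, the median of all genes on Day 16 was -0.25 in Pass-ctrl and -0.31 in Pass-IWP2 cells, and Pass-IWP2 cells had 4 lower calls and 0 higher, with JAG1 called (log2FC -1.47, adjusted p = 0.0488) and NOTCH2 not (0.36, adjusted p = 0.228). With total counts 21.3% of all genes were called in Pass-IWP2 cells, 3422 of 19505 genes lower and 733 higher. The comparisons share the NP-IWP2 libraries.

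On Day 12 only HEYL was called in Pass-ctrl against NP-IWP2 cells (1 of 10, lower, against 4.01% of all genes and 3.32% called lower). An unadjusted p under 0.05 was found for 7 of the 10 genes, against 4229 of all 19505 genes. Without replicate 5 of Pass-IWP2, 8 of 10 were called, 7 lower and JAG2 higher, against 23% of all genes, 14.1% lower and 8.87% higher, and DESeq2 called 6 on the 12 libraries. DESeq2 called 7.84% of all genes it tested. The median log2FC of the 10 genes was -1.19 with and without replicate 5 of Pass-IWP2. In Pass-IWP2 against NP-IWP2 cells on Day 12, edgeR called 0 of 10 genes (1.66% of all genes). There was 1 at an unadjusted p under 0.05 (2243 of all 19505 genes), and DESeq2 called 0 (3.27% of all genes it tested). Here the 2 Pass-IWP2 libraries disagreed: replicate 6 resembled the Pass-ctrl libraries, and replicate 5 lay above both NP-IWP2 libraries for NOTCH1, NOTCH2, NOTCH3, DLL1 and JAG1. Without replicate 5, 8 of 10 were called (7 lower, JAG2 higher), against 16% of all genes, 10.2% lower and 5.89% higher. Leaving out replicate 6 instead reversed the log2FC of NOTCH1 (0.16), NOTCH3 (0.39), DLL1 (0.073), JAG1 (0.48) and JAG2 (-0.71). The remaining genes kept the direction seen on 12 libraries.

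**Figure D1:**
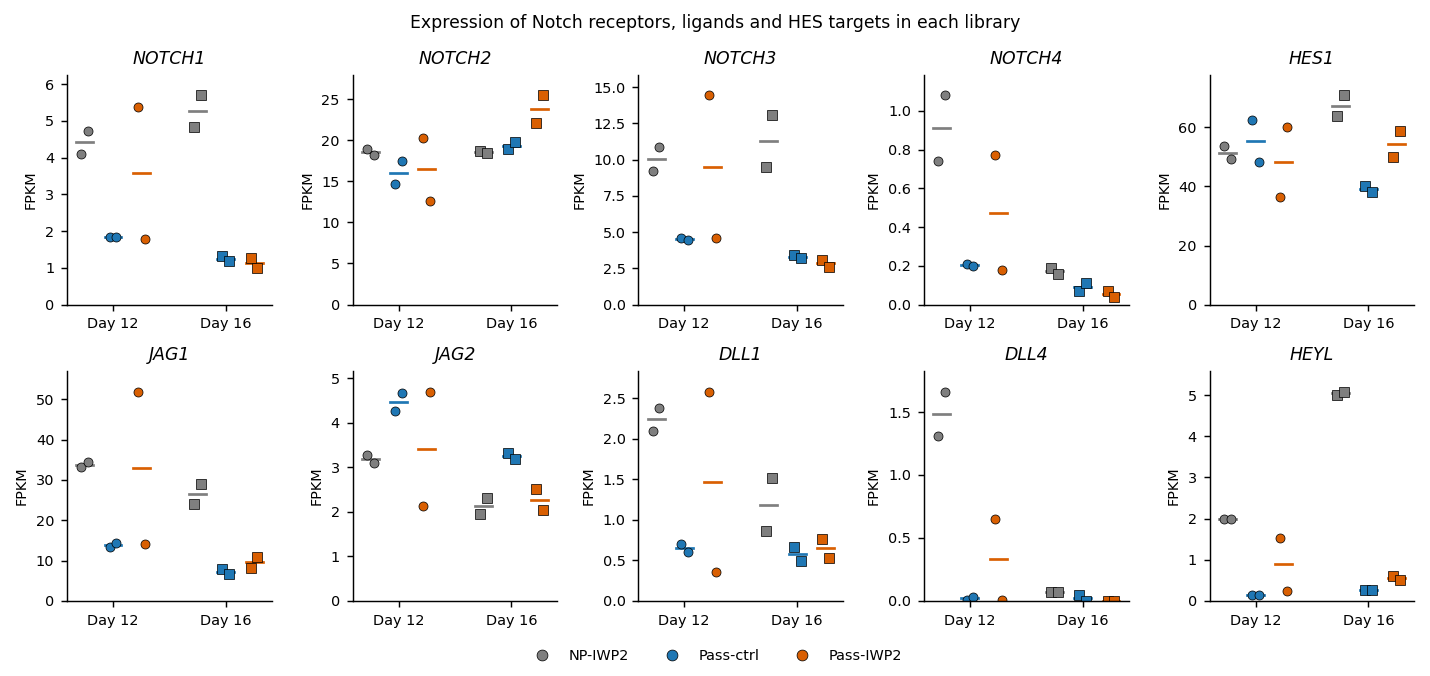
FPKM of each gene in each of the 12 libraries (points; circles Day 12, squares Day 16), with the mean of each pair as a line and a linear axis from 0. NOTCH1, NOTCH3, JAG1 and HEYL lie lower in passaged than in static cells on Day 16, NOTCH2 and HES1 stay high throughout, and the pair of Pass-IWP2 libraries on Day 12 is split.

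Among the receptors, NOTCH1 and NOTCH3 followed the same course. NOTCH1 (ENSG00000148400, chr9:136494433-136546048, minus strand, GRCh38), a receptor of endothelial and many other cells, was at 4.11 and 4.71 FPKM in NP-IWP2, 1.85 and 1.83 in Pass-ctrl and 5.38 and 1.78 in Pass-IWP2 libraries on Day 12. NOTCH1 was at 4.83 and 5.69 FPKM in NP-IWP2, 1.32 and 1.18 in Pass-ctrl and 1.27 and 0.99 in Pass-IWP2 libraries on Day 16. The static and passaged libraries of Day 16 did not overlap, and on Day 12 replicate 5 of Pass-IWP2 was the highest library of all. On Day 16 NOTCH1 fell by 1.84 on the log2 scale in Pass-ctrl (SE 0.35, adjusted p = 0.00921) and by 1.95 in Pass-IWP2 cells (SE 0.35, adjusted p = 0.00696), each against NP-IWP2. On Day 12 the log2FC in Pass-ctrl cells was -1.17 (SE 0.34, adjusted p = 0.0887), and without replicate 5 of Pass-IWP2 it was the same size with an adjusted p of 1.69e-05.

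NOTCH3 (ENSG00000074181, chr19:15159038-15200995, minus strand), the receptor of vascular smooth muscle cells and pericytes, was at 9.22 and 10.86 FPKM in NP-IWP2, 4.57 and 4.48 in Pass-ctrl and 14.43 and 4.59 in Pass-IWP2 libraries on Day 12. The Day 16 values were 9.48 and 13.11 FPKM in NP-IWP2, 3.39 and 3.19 in Pass-ctrl and 3.09 and 2.61 in Pass-IWP2 libraries. Every passaged library of Day 16 was thus below the lowest static library by more than the spread within any pair of that day. The log2FC on Day 16 was -1.54 in Pass-ctrl (SE 0.36, adjusted p = 0.0215) and -1.71 in Pass-IWP2 cells (SE 0.36, adjusted p = 0.0139). Across the 12 libraries, the log2 CPM of NOTCH1 and NOTCH3 had a Pearson correlation of 0.991, and NOTCH3 was among the 3 genes most like NOTCH1. The others were FBN1 (0.992), which encodes the matrix protein fibrillin, and TCF21 (0.991), a factor of epicardium and fibroblasts. The same libraries carry depth and marker differences, so these values only describe likeness.

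NOTCH2 took a different course. NOTCH2 (ENSG00000134250, chr1:119911553-120100779, minus strand), a broadly expressed receptor, was at 18.98 and 18.16 FPKM in NP-IWP2, 14.63 and 17.44 in Pass-ctrl and 20.32 and 12.59 in Pass-IWP2 libraries on Day 12. NOTCH2 on Day 16 was at 18.64 and 18.47 FPKM in NP-IWP2, 18.96 and 19.72 in Pass-ctrl and 22.06 and 25.44 in Pass-IWP2 libraries, so that the Pass-IWP2 pair was the highest. Its log2FC on Day 16 was 0.64 in Pass-IWP2 (SE 0.18, adjusted p = 0.0402) and 0.29 in Pass-ctrl cells (SE 0.18, adjusted p = 0.302). The call in Pass-IWP2 cells was held under 5 of 17 alternatives, and the direction under all 17. NOTCH2 has partial copies (NOTCH2NLA, NOTCH2NLB, NOTCH2NLC and NOTCH2NLR) listed at no more than 1.73 FPKM in any library. How the counting treated reads shared with them is uncertain.

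NOTCH4 was the rarest receptor. NOTCH4 (ENSG00000204301, chr6:32194843-32224067, minus strand), known from endothelium, was at 0.74 and 1.08 FPKM in NP-IWP2, 0.21 and 0.20 in Pass-ctrl and 0.77 and 0.18 in Pass-IWP2 libraries on Day 12. On Day 16 it was between 0.04 and 0.19 FPKM in all 6 libraries, with the NP-IWP2 pair at 0.19 and 0.16. Its 301 counts in NP-IWP2 cells on Day 12 became 60 on Day 16, a ratio of 5.15 after scaling to the library totals. The log2FC between the days was -2.26 (SE 0.55, adjusted p = 0.0714, and 0.000502 without replicate 5 of Pass-IWP2). NOTCH4 overlaps GPSM3 on the same strand, which had 29 to 219 counts per library, so the split of reads between them is uncertain.

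The make-up of the receptor transcripts differed accordingly. The sum of the 4 receptors was 33.0 to 37.4 FPKM in the 4 NP-IWP2 libraries, 40.9 in replicate 5 of Pass-IWP2 on Day 12 and 19.1 to 29.1 in the other passaged libraries. NOTCH2 supplied 52.8% ± 4.9 (SD, n = 2) of it in NP-IWP2 cells on Day 16, 80.7% ± 1.2 in Pass-ctrl and 85.4% ± 3.0 in Pass-IWP2 cells. The NOTCH3 share was 31.8% ± 4.5 in NP-IWP2, 13.7% ± 0.78 in Pass-ctrl and 10.3% ± 1.9 in Pass-IWP2 cells, and the NOTCH1 share was 14.9% ± 0.44, 5.21% ± 0.48 and 4.09% ± 0.97 in the same order. On Day 16 no static library overlapped a passaged one in any of these 3 shares. An exact two-sided permutation test of 2 libraries against 2 cannot give a p below 0.333, so the shares are given without a test.

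**Figure D2:**
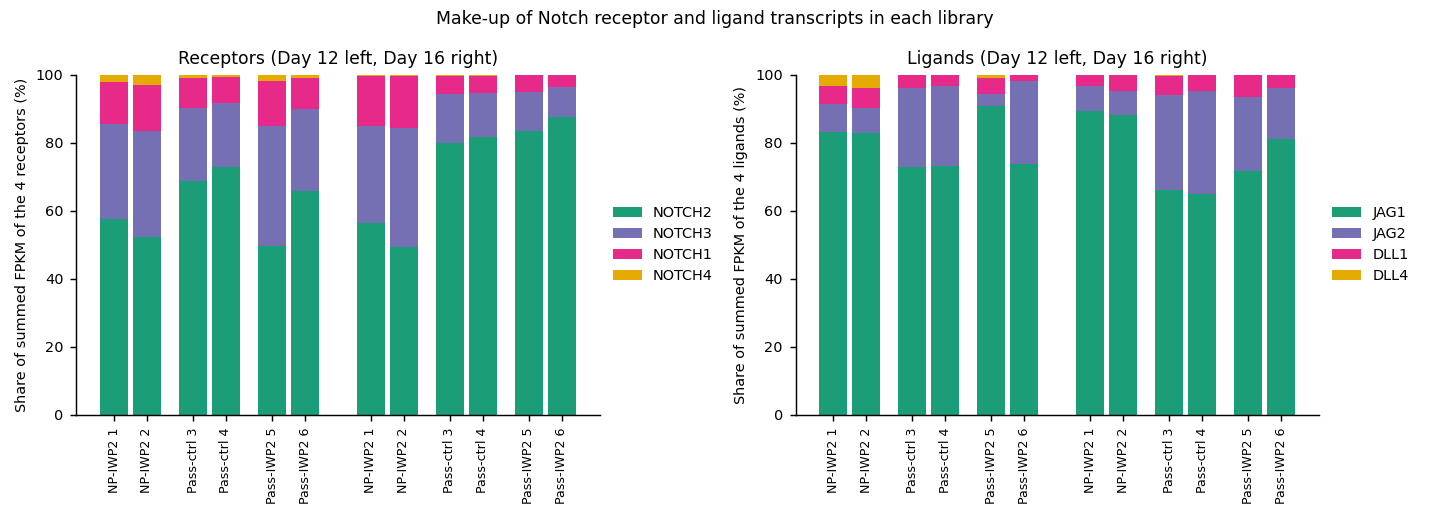
Share in percent of the summed FPKM of the 4 receptors (left) and the 4 ligands (right) held by each gene, 1 bar per library, with Day 12 on the left and Day 16 on the right of each panel. NOTCH2 fills 79.9% to 87.5% of the receptor bars in the 4 passaged libraries of Day 16, and JAG1 64.8% to 80.9% of the ligand bars.

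JAG1 was the main ligand in every library. JAG1 (ENSG00000101384, chr20:10637684-10673999, minus strand), a Jagged ligand of vascular and cardiac cells, was at 33.09 and 34.52 FPKM in NP-IWP2, 13.32 and 14.33 in Pass-ctrl and 51.82 and 14.15 in Pass-IWP2 libraries on Day 12. By Day 16 JAG1 was at 23.99 and 28.95 FPKM in NP-IWP2, 7.84 and 6.75 in Pass-ctrl and 8.26 and 10.86 in Pass-IWP2 libraries. The passaged pairs of Day 16 overlapped neither the static pair nor the passaged libraries of Day 12. JAG1 fell by 1.62 on the log2 scale in Pass-ctrl cells on Day 16 (SE 0.42, adjusted p = 0.0309). The value in Pass-IWP2 cells was -1.18 (SE 0.41, adjusted p = 0.079, and 4.88e-05 without replicate 5 of Day 12).

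JAG2 (ENSG00000184916, chr14:105140982-105168824, minus strand), the other Jagged ligand, was the only ligand whose mean FPKM was higher in Pass-ctrl than in NP-IWP2 cells on each day. It was at 3.27 and 3.09 FPKM in NP-IWP2, 4.27 and 4.67 in Pass-ctrl and 2.14 and 4.69 in Pass-IWP2 libraries on Day 12. By Day 16 JAG2 was at 1.95 and 2.30 FPKM in NP-IWP2, 3.31 and 3.18 in Pass-ctrl and 2.51 and 2.03 in Pass-IWP2 libraries. The Pass-ctrl pair lay above the NP-IWP2 pair on each day, and the Pass-IWP2 pair overlapped the NP-IWP2 pair. The log2FC of Pass-ctrl against NP-IWP2 on Day 16 was 0.85 (SE 0.34, adjusted p = 0.119), and 0.000238 was the adjusted p without replicate 5 of Pass-IWP2. JAG2 supplied 7.13% ± 0.19 of the ligand FPKM in NP-IWP2, 29.2% ± 1.8 in Pass-ctrl and 18.4% ± 4.7 in Pass-IWP2 cells on Day 16 (SD, n = 2), while JAG1 supplied 88.7% ± 0.77, 65.4% ± 0.91 and 76.3% ± 6.6.

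The Delta-like ligands were low. DLL1 (ENSG00000198719, chr6:170282206-170306565, minus strand), a ligand of many progenitor tissues, was at 2.10 and 2.38 FPKM in NP-IWP2, 0.70 and 0.61 in Pass-ctrl and 2.58 and 0.36 in Pass-IWP2 libraries on Day 12. DLL1 on Day 16 was at 0.86 and 1.52 FPKM in NP-IWP2, 0.67 and 0.49 in Pass-ctrl and 0.77 and 0.53 in Pass-IWP2 libraries. The gap between static and passaged libraries was wide on Day 12, replicate 5 of Pass-IWP2 apart, and narrow on Day 16. The log2FC of Pass-ctrl against NP-IWP2 was -1.68 on Day 12 (SE 0.64, adjusted p = 0.175, and 0.000939 without that library) and -0.79 on Day 16 (SE 0.65, adjusted p = 0.441). FAM120B overlaps DLL1 on the opposite strand with 820 to 1055 counts per library, against 869 counts of DLL1 over all 12, and the strand setting of the counting is not given in the sources used here.

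DLL4 was near 0 outside static cells and replicate 5 of Pass-IWP2 on Day 12. DLL4 (ENSG00000128917, chr15:40929340-40939073, plus strand), a ligand of endothelial cells, was at 1.31 and 1.66 FPKM in NP-IWP2, 0.01 and 0.03 in Pass-ctrl and 0.65 and 0.01 in Pass-IWP2 libraries on Day 12. On Day 16 it was at 0.07 FPKM in each NP-IWP2 library, 0.05 and 0 in Pass-ctrl libraries and 0 in each Pass-IWP2 library. In counts, the NP-IWP2 pair of Day 12 held 240 and the Pass-ctrl pair 3, a ratio after scaling to the library totals of 72.1 with a 95% interval from counting alone of 24.4 to 352. The log2FC was -5.99 (SE 1.41, adjusted p = 0.0557, and 3.82e-05 without replicate 5 of Pass-IWP2). NP-IWP2 cells held 11 counts on Day 16, which made DLL4 22.4-fold lower on that scale than on Day 12 (log2FC -4.34, SE 1.18, adjusted p = 0.105, and 0.000253 without that library). Pass-IWP2 cells of Day 16 had 0 counts, so that DLL4 was at least 3.89-fold lower there than in NP-IWP2 cells with a floor of 3 counts over the group.

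**Figure D3:**
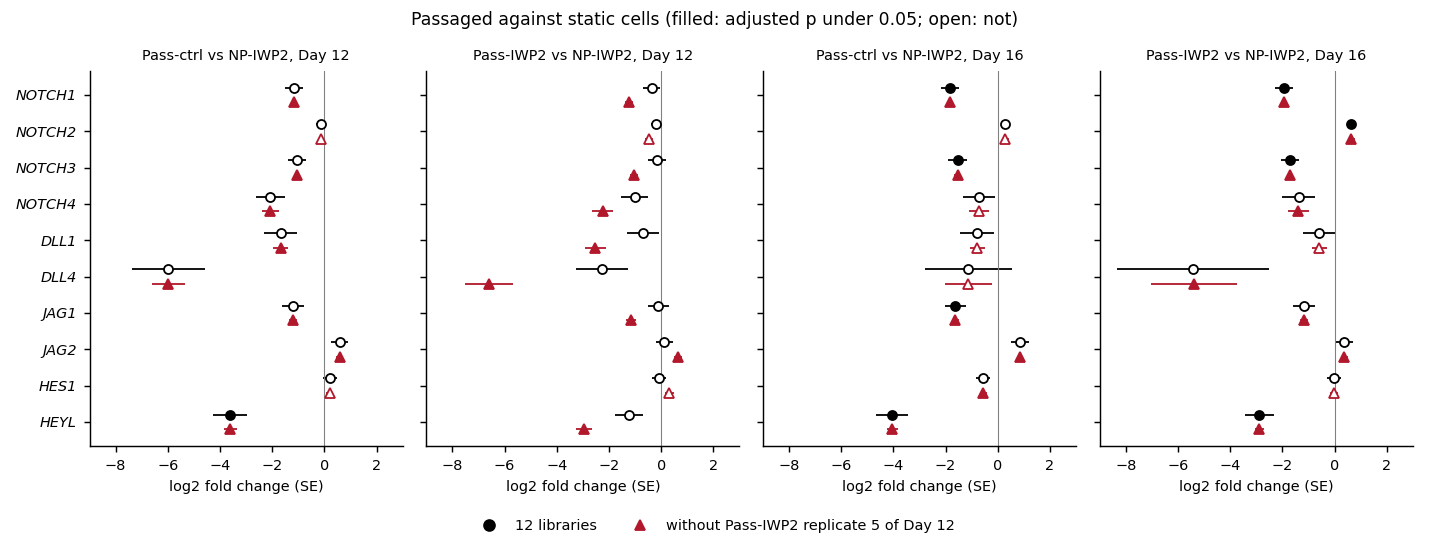
Log2 fold change with its standard error for each gene in the 4 comparisons of passaged with static cells, from 12 libraries (black circles) and without the Day 12 library labelled Pass-IWP2 replicate 5 (red triangles), with filled marks for an adjusted p under 0.05. The estimates hardly move between the fits except in Pass-IWP2 on Day 12, where NOTCH1 moves from -0.37 to -1.21 and HEYL from -1.24 to -2.96, and the errors shrink in every panel.

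HEYL (ENSG00000163909, chr1:39623435-39639643, minus strand), a repressor of the HEY family that is known from smooth muscle cells and pericytes, had the largest log2FC of those of the 10 genes that were called against NP-IWP2 cells on 12 libraries. It was at 1.98 FPKM in each NP-IWP2 library, 0.15 in each Pass-ctrl library and 1.54 and 0.24 in Pass-IWP2 libraries on Day 12. By Day 16 HEYL was at 5.01 and 5.08 FPKM in NP-IWP2, 0.26 in each Pass-ctrl library and 0.61 and 0.52 in Pass-IWP2 libraries. The 3 treatments did not overlap on Day 16, with the static pair far above both passaged pairs. The log2FC of Pass-ctrl against NP-IWP2 was -3.61 on Day 12 (SE 0.64, adjusted p = 0.0203) and -4.05 on Day 16 (SE 0.61, adjusted p = 0.00363). In Pass-IWP2 cells it was -2.88 on Day 16 (SE 0.56, adjusted p = 0.00994). The direction was the same under all 17 alternatives in each of these comparisons, and the call was kept under 13, 16 and 14 of them.

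HES1 (ENSG00000114315, chr3:194136148-194138732, plus strand) is a repressor that many cells express and that pathways other than Notch also switch on. It was the most abundant of the 10 genes per length of transcript in every library but replicate 5 of Pass-IWP2 on Day 12. There JAG1 was higher, at 51.82 FPKM. HES1 was at 53.53 and 49.31 FPKM in NP-IWP2, 62.45 and 48.22 in Pass-ctrl and 36.38 and 60.16 in Pass-IWP2 libraries on Day 12, where all 3 pairs overlapped. On Day 16 HES1 was at 63.94 and 70.82 FPKM in NP-IWP2, 40.12 and 38.12 in Pass-ctrl and 49.91 and 58.68 in Pass-IWP2 libraries, and the pairs no longer overlapped. The log2FC of Pass-ctrl against NP-IWP2 on Day 16 was -0.55 (SE 0.27, adjusted p = 0.193). Without replicate 5 of Day 12 its adjusted p was 0.00872. In Pass-IWP2 cells the TMM-scaled log2FC was -0.03 (SE 0.27, adjusted p = 0.956), although the FPKM pair lay below the static pair. FPKM is scaled to total counts, the scale on which all genes had the lower median given above.

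The stretch before the start of each target is shown because RBPJ, the DNA-binding partner of the Notch intracellular domain, is known to bind GTGGGAA in promoters of HES and HEY genes. RefSeq promoters (GRCh38.p14) matched 9 of the 10 genes by symbol, all but DLL1, and the 250 bases before the start were searched on both strands. GTGGGAA was present in 5.43% of all 35116 promoters and in those of HES1 and HEYL among the 9, and its shorter core TGGGAA, which it contains, in 20.85% of all. In HES1 it lies on the gene's strand 85 to 79 bases before the start, with a separate TGGGAA 70 to 65 bases before it. In HEYL it lies on the opposite strand 178 to 172 bases before the start, read as TTCCCAC, with TGGGAA on the gene's strand 99 to 94 bases before it. Capitals mark these letters, 5′ to 3′ on the gene's strand.
HES1 (chr3:194135898-194136147, plus strand): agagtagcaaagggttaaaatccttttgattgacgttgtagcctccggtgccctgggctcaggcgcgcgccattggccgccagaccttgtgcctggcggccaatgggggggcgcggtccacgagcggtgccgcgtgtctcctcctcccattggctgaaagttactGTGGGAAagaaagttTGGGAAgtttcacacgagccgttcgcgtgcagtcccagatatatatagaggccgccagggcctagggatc
HEYL (chr1:39639644-39639893, minus strand): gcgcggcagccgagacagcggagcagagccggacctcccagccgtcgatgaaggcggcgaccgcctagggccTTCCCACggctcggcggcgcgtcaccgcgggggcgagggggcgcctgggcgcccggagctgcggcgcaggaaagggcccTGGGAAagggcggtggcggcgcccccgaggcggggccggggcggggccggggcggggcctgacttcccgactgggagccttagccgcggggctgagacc
The matches describe the letters only. HEYL, whose promoter holds them, was called lower in passaged cells on Day 16 on 12 libraries. HES1, whose promoter also holds them, was not called in that fit. Under 6 of 17 alternatives HES1 was called lower in Pass-ctrl cells, and under 0 in Pass-IWP2 cells.

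Of 8 other genes, members of the HES and HEY families and NRARP, 6 were tested. On Day 16 NRARP was called lower in Pass-ctrl (15.3% of all genes called) and 0 were called in Pass-IWP2 cells (17.1%). The shares of all genes without replicate 5 of Day 12 are those given above for Day 16. Leaving out replicate 5 of Day 12, 1 was called higher and 2 lower in Pass-ctrl, and 1 higher and 1 lower in Pass-IWP2 cells. HES4, HES6 and HES7, named after their values were seen, had mean FPKM on Day 16 of 22.5, 1.15 and 0.20 in NP-IWP2, 17.1, 1.80 and 0.19 in Pass-ctrl and 24.6, 1.66 and 0.435 in Pass-IWP2 cells, with log2FC of -0.16, 0.89 and 0.15 in Pass-ctrl and 0.41, 0.82 and 1.37 in Pass-IWP2 cells, none called. HEY1, a repressor of endocardial and atrioventricular canal cells, was at 24.99 and 34.31 FPKM in NP-IWP2, 5.07 and 5.40 in Pass-ctrl and 8.38 and 12.81 in Pass-IWP2 libraries on Day 16. Its static libraries of that day lay above all passaged ones, with log2FC of -2.26 in Pass-ctrl (SE 0.80, adjusted p = 0.0862) and -1.19 in Pass-IWP2 cells (SE 0.77, adjusted p = 0.309). In replicate 5 of Pass-IWP2 on Day 12 HEY1 reached 40.53 FPKM, the highest of all, and without that library the adjusted p-values of Day 16 were 3.92e-06 and 0.000485. HEY2, a repressor of compact ventricular muscle, was at 11.97 and 15.32 FPKM in NP-IWP2, 19.82 and 18.58 in Pass-ctrl and 10.26 and 4.60 in Pass-IWP2 libraries on Day 16. The Pass-ctrl pair was highest and the Pass-IWP2 pair lowest, and neither difference from NP-IWP2 passed the test (adjusted p = 0.16 and 0.224, and 0.0411 and 0.0855 without replicate 5 of Day 12). NRARP, a target that feeds back on Notch signaling, was at 6.85 and 6.67 FPKM in NP-IWP2, 2.30 and 2.65 in Pass-ctrl and 2.22 and 4.25 in Pass-IWP2 libraries on Day 16. It fell by 1.22 on the log2 scale in Pass-ctrl cells (SE 0.35, adjusted p = 0.0461), and in Pass-IWP2 cells the value was -0.77 (SE 0.35, adjusted p = 0.153).

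Between Day 12 and Day 16, NOTCH2 rose in Pass-IWP2 cells, and DLL4 and NOTCH4 had lower values on Day 16 in static cells, which did not pass the test on 12 libraries. With total counts the median log2FC of all genes over time was -0.11, -0.28 and -0.49 in NP-IWP2, Pass-ctrl and Pass-IWP2 cells, against 0.0016, -0.02 and -0.08 with TMM. In NP-IWP2 cells edgeR called 0 of 10 (1.98% of all genes). DLL4, NOTCH4 and HEYL, 3 of 10, had an unadjusted p under 0.05 (3836 of all 19505 genes), and DESeq2 called 2 (6% of all genes it tested). Without replicate 5 of Pass-IWP2, which has no part in this comparison, 6 were called against 18.3% of all genes (9.84% higher, 8.45% lower). Those were DLL4, NOTCH4 and JAG2 lower, and HEYL, HES1 and NOTCH1 higher, with HEYL at a log2FC of 1.46 (adjusted p = 0.00013). In Pass-ctrl cells 0 of 10 were called (13.6% of all genes). NOTCH2 alone had an unadjusted p under 0.05 (5870 of all 19505 genes), and DESeq2 called 1 (17.6% of all genes it tested). Without replicate 5 of Pass-IWP2, NOTCH2 and HEYL rose and JAG1 fell (3 of 10, against 30.8% of all genes, 15.8% higher and 15% lower).

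In Pass-IWP2 cells 6 of 10 were called between the days, against 27% of all genes, 12.9% higher and 14.1% lower. NOTCH2 rose by 0.97 on the log2 scale (SE 0.18, adjusted p = 0.00683), and NOTCH1, NOTCH3, NOTCH4, DLL4 and JAG1 were called lower. These 5 lower calls rest on replicate 5 of Day 12: without it none was made, and the calls were NOTCH2 higher (1.22, adjusted p = 0.000224), HEYL higher (1.55, adjusted p = 0.00365) and JAG2 lower (-0.75, adjusted p = 0.00303), against 25.1% of all genes, 13.1% higher and 12% lower. With a fit of only the 4 libraries compared, 0 were called, and so were 0% of all genes. NOTCH2 was thus the only gene of the 10 called in this comparison with and without that library.

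On 12 libraries, the difference of passaged from static cells was not shown to change between the days. In Pass-ctrl cells that difference includes the absence of IWP2. The interaction of day and treatment was called for 0 of 10 genes in Pass-ctrl (0.482% of all genes) and for 0 of 10 in Pass-IWP2 cells (1.84%). At an unadjusted p under 0.05 there were 0 and 3 (NOTCH1, NOTCH2 and NOTCH3), against 2425 and 4080 of all 19505 genes. DESeq2 called 0 and 3, against 2.7% and 8.3% of all genes it tested. Without replicate 5 the interaction passed for HES1 (-0.75, adjusted p = 0.039) and NOTCH1 (-0.67, adjusted p = 0.0305) in Pass-ctrl cells, against 8.09% of all genes. In Pass-IWP2 cells it passed for DLL1 (1.94, adjusted p = 0.0308), NOTCH1 (-0.73, adjusted p = 0.0325) and NOTCH2 (1.11, adjusted p = 0.0051), against 8.33% of all genes.

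The effect of IWP2 in passaged cells was read from Pass-IWP2 against Pass-ctrl. On Day 16 edgeR called 0 of 10 (0% of all genes). An unadjusted p under 0.05 was found for 0 of 10 (1567 of all 19505 genes), and DESeq2 called 0 of 10 (0.591%). The largest log2FC among genes with more than a few counts was that of HEYL, at 1.17 with a 95% interval of -0.20 to 2.54, and its Pass-IWP2 pair (0.61 and 0.52 FPKM) lay above the Pass-ctrl pair (0.26 in each). Without replicate 5 of Day 12 HEYL was called here (SE 0.24, adjusted p = 0.0271), against 2.58% of all genes called and 1.7% higher. The interval was -0.06 to 0.75 for NOTCH2, -0.88 to 0.67 for NOTCH1, -0.97 to 0.64 for NOTCH3 and -0.48 to 1.37 for JAG1. Differences within these intervals were thus not excluded. On Day 12 edgeR called 0 of 10 (0% of all genes), and DESeq2 called 1 of 10 (0.952%). An unadjusted p under 0.05 was found for 5 of 10, against 2061 of all 19505 genes. The log2FC of those 5 genes was 3.71 for DLL4, 2.36 for HEYL, 1.09 for JAG1, 0.80 for NOTCH1 and 0.91 for NOTCH3. Without replicate 5, which leaves replicate 6 alone, it was -0.62, 0.65, 0.039, -0.043 and 0.024 in that order.

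Of 57 other genes of the pathway, 54 were tested, all but DNER, HES5 and HES2. On Day 16, 3 were called higher and 9 lower in Pass-ctrl, and 2 higher and 8 lower in Pass-IWP2 cells, each against NP-IWP2, where 15.3% and 17.1% of all genes were called. The counts without replicate 5 of Pass-IWP2 on Day 12 were 6 higher and 20 lower in each, against 34.1% and 36.4% of all genes. Their median log2FC was -0.19 in Pass-ctrl and -0.25 in Pass-IWP2 cells, against -0.02 and -0.03 for all genes. On Day 12 the calls were 2 higher and 2 lower in Pass-ctrl (4.01% of all genes) and 0 in Pass-IWP2 cells (1.66%). Without that library they were 4 higher and 14 lower (23% of all genes) and 2 higher and 10 lower (16%). Of the 9 genes of receptor processing (the ADAM proteases, furin and gamma-secretase), ADAM17 was called higher and APH1B lower in Pass-ctrl cells on Day 16, and APH1B lower in Pass-IWP2 cells. APH1B, a gamma-secretase subunit, was at 3.87 and 5.27 FPKM in NP-IWP2 and 1.28 and 0.95 in Pass-IWP2 libraries (log2FC -1.76, SE 0.36, adjusted p = 0.0115). Of 12 genes of the nuclear complex, 1 was called higher and 1 lower in Pass-ctrl, and 1 higher and 4 lower in Pass-IWP2 cells. Without that library 1 was called higher in each, 4 lower in Pass-ctrl and 8 lower in Pass-IWP2 cells. RBPJ, named after its values were seen, like ADAM17, had a log2FC of -0.04 in each comparison (adjusted p = 0.846 and 0.82).

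Calls with larger differences were found among the modifiers and non-canonical ligands. LFNG, the fringe enzyme that adds sugars to the receptors and so sets which ligands act on them, was at 0.40 and 0.33 FPKM in NP-IWP2 and between 0.02 and 0.03 in the 4 passaged libraries of Day 16. It fell by 3.51 on the log2 scale in Pass-ctrl (SE 0.64, adjusted p = 0.00794) and by 3.19 in Pass-IWP2 cells (SE 0.61, adjusted p = 0.00912), from 44 counts in the static pair to 3 and 4. The ratio against Pass-ctrl was 14.2, with an interval from counting of 4.56 to 71.7. DLK1, a membrane protein that acts as an inhibitory ligand, was at 31.73 and 25.04 FPKM in NP-IWP2 and between 0.33 and 1.29 in the passaged libraries of Day 16. Its log2FC was -5.25 in Pass-ctrl (SE 1.16, adjusted p = 0.0175) and -4.28 in Pass-IWP2 cells (SE 1.09, adjusted p = 0.0277). CNTN1, a neural adhesion protein that can bind Notch, went the other way, from 0.34 and 0.30 FPKM in NP-IWP2 to between 1.22 and 2.17 in the passaged libraries. Its log2FC was 2.42 (SE 0.33, adjusted p = 0.00209) and 2.72 (SE 0.33, adjusted p = 0.00122). NEURL1B, a ubiquitin ligase of the ligands, fell by 1.20 in Pass-ctrl cells (SE 0.22, adjusted p = 0.00729), and MFAP2, a microfibril protein that can bind Jagged ligands, by 1.13 in Pass-IWP2 cells (SE 0.29, adjusted p = 0.0286). Without replicate 5 of Day 12, the calls named for LFNG, DLK1, CNTN1, NEURL1B, MFAP2 and APH1B, and for NRARP in Pass-ctrl cells, were kept. That library is in none of these comparisons, and leaving it out raised the share of all genes called. The kept calls therefore add no support. Fits without a library of Day 16 are not reported here for these genes.

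**Figure D4:**
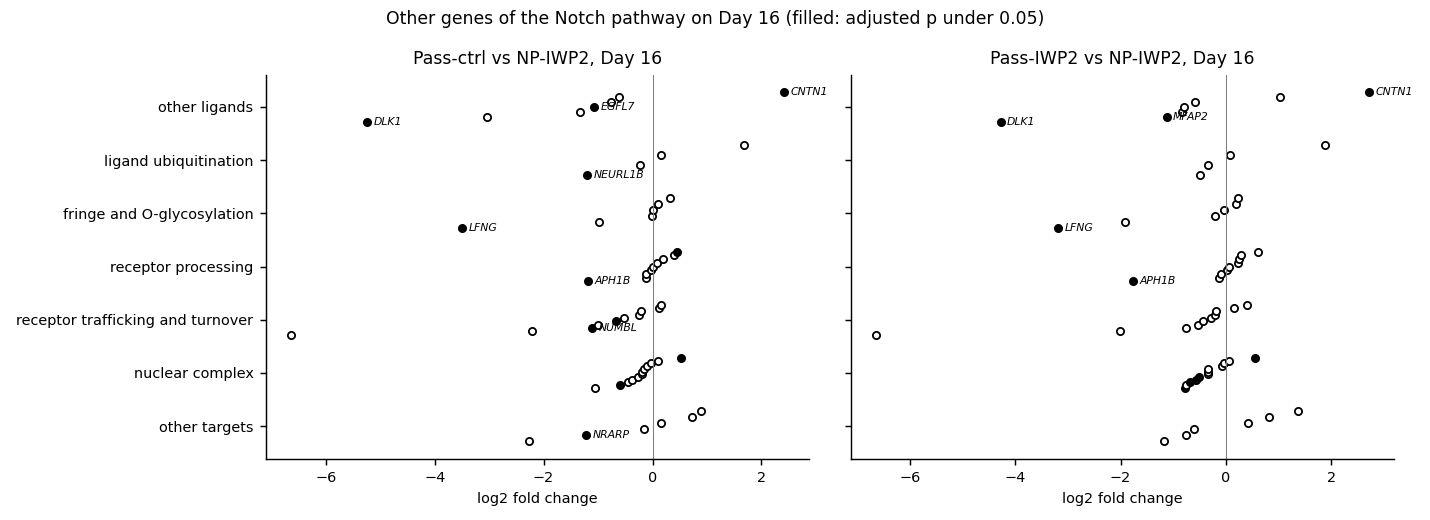
Log2 fold change of 54 other genes of the pathway on Day 16, by their role, in Pass-ctrl (left) and Pass-IWP2 (right) against NP-IWP2 cells. Filled points have an adjusted p under 0.05, and those past 1 in size are named. Most points of receptor processing and the nuclear complex lie near 0, while DLK1 and LFNG lie far to the left and CNTN1 to the right in both panels.

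Some sums of markers of other cell types followed these genes, and others did not. In bulk RNA, fewer cells of a type and less RNA per cell cannot be told apart. The 12 endothelial markers summed to 194 and 211 FPKM in NP-IWP2, 161 and 224 in Pass-ctrl and 30.4 and 233 in Pass-IWP2 libraries on Day 12, so that this sum did not separate static from passaged cells, and to 54.2 to 55.7 in NP-IWP2 and 10.2 to 15.2 in passaged libraries on Day 16. KDR, which cardiac progenitors also express, made up most of the sum in every library but replicate 5 of Pass-IWP2 on Day 12. Leaving out KDR was chosen after the values were seen. The other 11 summed to 33.2 and 37.5 FPKM in NP-IWP2 libraries on Day 12, 16.3 and 15.0 on Day 16, 19.2 in replicate 5 of Pass-IWP2 on Day 12 and 0.25 to 0.72 in the other passaged libraries. EMCN and ROBO4 were at 0 in both Pass-ctrl libraries of Day 12, and CLDN5 and ROBO4 in all 4 passaged libraries of Day 16, where CLDN5 was at 0 in both NP-IWP2 libraries as well. DLL4 and NOTCH4 were highest where the sum without KDR was highest, although between the days their FPKM in NP-IWP2 cells differed by a larger factor than the sum. The part of these cells in the result was not tested. The gene most like DLL4 after E2F5 (0.971) was CDH5 (0.958), the cadherin of endothelial junctions.

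The 9 fibroblast markers summed to 805 and 816 FPKM in NP-IWP2 libraries on Day 12, 1399 and 1416 on Day 16, 788 in replicate 5 of Pass-IWP2 on Day 12 and 28.4 to 48.5 in the other passaged libraries, with TCF21 at 0 in both Pass-IWP2 libraries of Day 16. The 8 epicardial markers summed to 97.5 to 121 FPKM in NP-IWP2 libraries, 135 in that library and 11.5 to 25.1 in the other passaged libraries. HEYL, NOTCH1, NOTCH3 and JAG1 were high in the same libraries as these sums, and the part of these cells in their differences was not tested. Among the genes most like HEYL were PDGFRB (0.979), a receptor of pericytes and other mural cells, and MMP14 (0.978), a membrane-bound matrix protease. The 10 smooth muscle and pericyte markers did not follow the same order: they summed to 281 to 505 FPKM in NP-IWP2, 325 to 427 in Pass-ctrl and 401 to 1026 in Pass-IWP2 libraries on Day 16. The 6 endocardial markers summed to 45.4 to 46.7, 8.78 to 9.39 and 12.4 to 19.7 FPKM in the same order, the 12 hepatic markers to 892 to 1100, 141 to 155 and 227 to 336, and the 8 neural markers to 25.3 to 29.1, 0.52 to 0.82 and 0.76 to 0.78. The 10 cell cycle markers summed to between 92.8 and 136 FPKM in all 6 libraries.

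**Figure D5:**
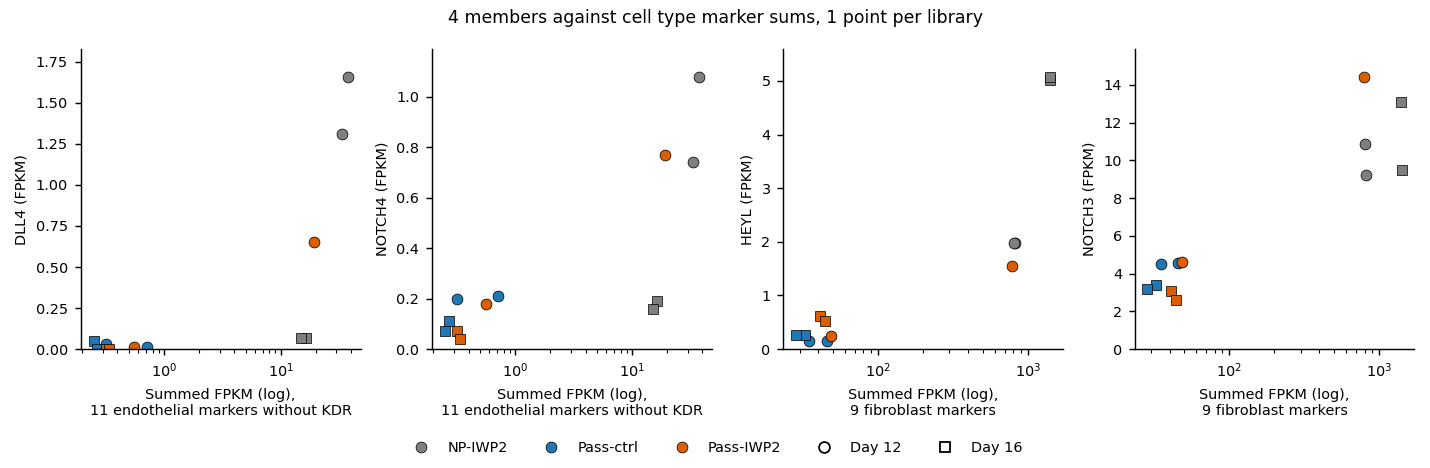
FPKM of DLL4 and NOTCH4 against the summed FPKM of 11 endothelial markers without KDR, and of HEYL and NOTCH3 against 9 fibroblast markers (log horizontal axes), 1 point per library, with color for treatment, circles for Day 12 and squares for Day 16. The orange circle among the gray points in each panel is the Day 12 library labelled Pass-IWP2 replicate 5.

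The remaining genes had other neighbors in this ranking. The gene most like NOTCH3 was COL6A6 (0.993), a collagen chain, and that most like JAG1 was LRFN5 (0.985). NOTCH2 was most like CEP120 (0.972), NOTCH4 most like DNMT3B (0.976), DLL1 most like MXRA8 (0.930), JAG2 most like NUP210 (0.962) and HES1 most like GFPT1 (0.947). Among the 10 genes, JAG2 ran against HEYL with a correlation of -0.86, and HES1 had its strongest positive one with NOTCH2, at 0.21. Each value is a Pearson correlation of log2 CPM over 12 libraries that share 6 groups, and describes the pattern only.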

How the data were processed

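RNA-seq was performed on 12 libraries from 3 treatments and 2 days, with 2 in each group. The authors trimmed reads with Cutadapt 1.9.1, aligned them to hg38 with Hisat2 2.0.1 and counted them with HTSeq 0.6.1, per the labels. The deposited table holds raw read counts per Ensembl gene and FPKM that the authors made from these counts, equal within 0.005 to the count divided by exon length and library total. Of its IDs found in GENCODE 44, 99.0% share a start or end with it. Read counts per library had a median of 16452289, and counting intervals cover counting error only.

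Counts were compared with edgeR 4.0.16 in R 4.3.3 (TMM, filterByExpr, 1 model of 6 groups, quasi-likelihood test with Benjamini-Hochberg adjustment at 0.05), which was tested on simulated data. SE is log2FC over the root of the test's F. Alternatives were DESeq2 1.42.0, limma 3.58.1 on log2(FPKM + 1) for mean FPKM of at least 1, total counts, no filter, only the groups compared, each library left out, and a replicate block.

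The members and gene lists were chosen with earlier results of these data known. Named besides the 10 genes were the called pathway genes of Day 16, at most the 5 largest per comparison, HEY1, HEY2 and NRARP, and for likeness genes among the 3 with the highest correlation, of which some are not reported here. The replicate numbers gave no pairing between Day 12 and Day 16: deviations from the group means correlated by 0.06, 0.003 and -0.03 in NP-IWP2, Pass-ctrl and Pass-IWP2. Python 3.11.15 with pandas 2.3.3, numpy 2.4.6 and matplotlib 3.10.9 served for tables and figures.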

Additional observations from a re-analysis of the deposited data

How the results depend on the processing

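The number of the 10 genes called changed with the fit. The 2 Pass-IWP2 libraries of Day 12, which disagreed, add to the shared spread, and leaving out either of them removes that part. Without the filter on low counts, 7 were called in Pass-ctrl against NP-IWP2 on Day 12, 2 and 7 in Pass-IWP2 against NP-IWP2 on Day 12 and Day 16, 5 in Pass-IWP2 against Pass-ctrl on Day 12, 3 and 2 between the days in NP-IWP2 and Pass-ctrl, and 1 and 5 for the interactions of Pass-ctrl and Pass-IWP2. The shares of all genes, in the same order, were 7.7%, 3.79%, 12.3%, 4.18%, 5.07%, 9.5%, 2.79% and 6.77%. With only the groups compared there were 8 in Pass-ctrl against NP-IWP2 on Day 12, 7, 2 and 0 between the days in NP-IWP2, Pass-ctrl and Pass-IWP2, and 3 for the interaction of Pass-ctrl. Of all genes, 28.1%, 26%, 32.2%, 0% and 12.2% were called in that order. DESeq2 gave 6 in Pass-ctrl against NP-IWP2 on Day 12, 1 in Pass-IWP2 against Pass-ctrl on Day 12, 2 and 1 between the days in NP-IWP2 and Pass-ctrl, and 3 for the interaction of Pass-IWP2. Its shares of all genes tested were 7.84%, 0.952%, 6%, 17.6% and 8.3% in that order. Limma, which tested 8 of the 10, gave 3 between the days in Pass-IWP2, against 39% of all genes it tested. The cause was not tested, except that the fits differ in the genes or libraries that set the spread.

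Leaving out 1 library at a time gave 0 to 8 calls in Pass-ctrl and 0 to 8 in Pass-IWP2 against NP-IWP2 on Day 12, 0 to 6 and 0 to 8 on Day 16, 0 to 9 and 0 to 1 in Pass-IWP2 against Pass-ctrl on Day 12 and Day 16, 0 to 7, 0 to 3 and 0 to 10 between the days in NP-IWP2, Pass-ctrl and Pass-IWP2, and 0 to 2 and 0 to 6 for the interactions. On Day 16 the 4 calls in Pass-ctrl became 2 and 1 without NP-IWP2 replicate 1 or 2 of that day and 1 and 0 without Pass-ctrl replicate 3 or 4, and those in Pass-IWP2 became 1 without NP-IWP2 replicate 2 and 1 and 0 without Pass-IWP2 replicate 5 or 6 of that day. The share of all genes called also changed with the library left out. In both comparisons with NP-IWP2 on Day 16 it fell when any of their own libraries was left out. These counts thus do not describe the 10 genes alone. In both comparisons with NP-IWP2 on Day 16, HEYL, NOTCH1, NOTCH3 and JAG1 stayed lower under all 17 alternatives. Directions that reversed without a library were those of NOTCH1 (-1.21 to 0.16), NOTCH3 (-1.04 to 0.39), DLL1 (-2.52 to 0.073), JAG1 (-1.16 to 0.48), JAG2 (-0.71 to 0.65) and HES1 (-0.63 to 0.32) in Pass-IWP2 against NP-IWP2 on Day 12, HES1 in Pass-ctrl on Day 12 (-0.035 to 0.38) and in Pass-IWP2 on Day 16 (-0.21 to 0.14), DLL1 (-0.14 to 0.27, with -0.040 without Pass-ctrl replicate 4 of Day 12) and DLL4 (-3.79 to 1.53) between the days in Pass-ctrl, and DLL1 (-1.47 to 1.12), JAG2 (-0.75 to 0.60) and HEYL (-0.92 to 1.55) between the days in Pass-IWP2. None of these was called on 12 libraries.

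NOTCH2 between the days in NP-IWP2 reversed to -0.0014 with total counts and -0.00080 with limma, and DLL1 between the days in Pass-ctrl to -0.18 and -0.069. With a replicate block, which the numbers do not justify as a pairing, the counts stayed at 0, 0 and 6 between the days and at 0 and 0 for the interactions, and HEYL between the days in Pass-IWP2 reversed to 0.16. The block gave 0.79%, 9.52% and 23.9% of all genes between the days, and 0.0615% and 1.99% for the interactions. NOTCH4, DLL1 and DLL4 rest on few reads: DLL4 had at most 11 counts in every group of Day 16.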

Other observations

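Some pathway genes outside the naming rule differed between static and passaged cells, and they were chosen after their values were seen. MAML3, a coactivator of the Notch complex, fell by 0.59 on the log2 scale in Pass-ctrl (SE 0.12, adjusted p = 0.0126 by edgeR) and by 0.78 in Pass-IWP2 cells on Day 16 (SE 0.12, adjusted p = 0.0039). The values for MAML2 were -1.05 and -0.77, with adjusted p of 0.0876 and 0.179, and of 0.000154 and 0.00137 without replicate 5 of Pass-IWP2 on Day 12. KAT2B, an acetyltransferase of the complex, rose by 0.52 (SE 0.15, adjusted p = 0.0459) and 0.55 (SE 0.15, adjusted p = 0.036) in the same comparisons. EGFL7, a secreted protein of endothelial cells, fell in Pass-ctrl cells by 1.46 on Day 12 (SE 0.25, adjusted p = 0.0185) and by 1.08 on Day 16 (SE 0.26, adjusted p = 0.0234).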
